A study of Mus musculus with 4 samples.

Results

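A set of 8 genes of the cardiac regulatory network was followed across gastrulation: the transcription factors *Nkx2-5*, *Isl1*, *Mef2c*, *Hand1*, *Hand2*, *Meis1* and *Prrx2*, and *Smarcd3*, which encodes a subunit of a chromatin remodelling complex. The genes were chosen by name, and all 8 were found among the 19616 genes of the count tables and in each of the 3 libraries. Single-cell RNA-seq (10x Chromium 3′) had been run on whole mouse embryos at 3 stages: mid-streak to late streak (MS-LS, collected at E6+21h), no bud to early bud (OB-EB, E7+3h) and early headfold (EHF, E7+14h). Every embryo carried TnEGP-CreERT2/+ and 2 copies of the R26R tdTomato reporter, so that a cell expressing *T* (Brachyury) at the time of tamoxifen, together with its progeny, could become tdTomato positive. Tamoxifen (0.08 mg per body weight, by gavage) was given at E6+5h for MS-LS embryos, at E6+21h for OB-EB embryos and at E7+7h for EHF embryos. Embryos of a stage were pooled into 1 library, so there was no biological replicate and no test between stages was possible. Differences are given with intervals that cover counting error only.

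The heart forms from mesoderm that leaves the primitive streak, migrates anteriorly and settles as the cardiac crescent, the first heart field (FHF), with second heart field progenitors beside it. *Nkx2-5* encodes a homeodomain factor that is among the earliest markers of committed cardiac progenitors. *Isl1* encodes a LIM homeodomain factor known for second heart field progenitors, and it is also expressed in anterior endoderm. *Mef2c* encodes a MADS box factor that activates muscle genes, and *Hand1* and *Hand2* encode basic helix-loop-helix factors of the left and right ventricle, respectively, with further roles in extra-embryonic tissues and lateral mesoderm. *Meis1* encodes a TALE homeodomain cofactor of Hox and Pbx proteins, and *Prrx2* a paired-related homeodomain factor of embryonic mesenchyme. *Smarcd3* (Baf60c) encodes the subunit of the BAF complex known for linking that complex to cardiac transcription factors.

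In GRCm38, *Nkx2-5* lies on chromosome 17 (26838664 to 26845009, minus strand), *Mef2c* on chromosome 13 (83504034 to 83667080, plus strand) and *Smarcd3* on chromosome 5 (24590818 to 24624411, minus strand). *Isl1* lies on chromosome 13 (116298281 to 116309689, minus), *Hand1* and *Meis1* on chromosome 11 (57828705 to 57832818 and 18879817 to 19018985, both minus), *Hand2* on chromosome 8 (57320983 to 57324633, plus) and *Prrx2* on chromosome 2 (30834972 to 30881251, plus). The 3′ end of *Smarcd3* overlaps *Chpf2* on the opposite strand, and *Hand2* overlaps *Hand2os1*. *Nkx2-5*, *Mef2c* and *Smarcd3* had the largest FHF ratios of the 8 genes, so 200 bases upstream of their RefSeq starts (GRCm38.p6) are shown, from 250 to 51 bases before the start. Capitals mark matches, on either strand, to the GATA motifs AGATAA and TGATAA or to the NK2 motif AAGTG.
Nkx2-5, chr17:26841616-26841815, minus strand: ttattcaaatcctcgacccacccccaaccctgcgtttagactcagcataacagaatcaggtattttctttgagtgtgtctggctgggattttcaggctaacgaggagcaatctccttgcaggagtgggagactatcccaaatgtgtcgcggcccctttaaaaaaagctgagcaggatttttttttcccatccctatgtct
Mef2c, first of 3 starts, chr13:83503784-83503983, plus strand: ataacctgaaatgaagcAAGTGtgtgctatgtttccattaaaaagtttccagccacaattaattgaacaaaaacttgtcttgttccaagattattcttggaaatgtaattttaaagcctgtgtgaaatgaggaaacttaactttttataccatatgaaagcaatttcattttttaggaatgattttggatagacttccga
Smarcd3, chr5:24602053-24602252, minus strand: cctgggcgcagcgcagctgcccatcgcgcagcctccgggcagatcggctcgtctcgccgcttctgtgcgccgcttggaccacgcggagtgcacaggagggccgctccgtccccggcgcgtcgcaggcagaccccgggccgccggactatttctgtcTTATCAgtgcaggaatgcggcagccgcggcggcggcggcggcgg

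None of these 3 windows overlapped an annotated exon of its own gene. The *Nkx2-5* and *Smarcd3* windows lay inside the gene spans given above, before a start that is downstream of the gene's 5′ end. The *Mef2c* window lay outside its gene span. The *Smarcd3* window held a TGATAA match at -94 to -89, a motif found in 6.74% of 32851 promoter windows of the same length. The *Mef2c* window held an AAGTG match at -233 to -229, found in 34.2% of windows. The *Nkx2-5* window held neither GATA motif nor AAGTG. Each of the 3 windows held an E-box CANNTG (59.0% of windows), at -113 to -108 in *Nkx2-5*, at -234 to -229 and -100 to -95 in *Mef2c*, and at -237 to -232 in *Smarcd3*. The E-box at -234 in *Mef2c* overlapped its AAGTG match. No window held the MEF2-type motif, CTA and TAG with any 4 bases between them (2.58% of windows). Promoter windows were listed for 7 of the 8 genes, all but *Hand1*.

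The libraries held 3635 cells at MS-LS, 3994 at OB-EB and 3494 at EHF, with 17966956, 12181436 and 20376539 UMIs (unique molecular identifiers, each counted as 1 transcript molecule) and medians of 4251, 2620.5 and 5584 UMIs per cell. A second EHF table was identical to the first in all 65128160 values and was counted as 1 library with it. Any pair of libraries shared 12 to 18 cell barcodes. Among cells that could be assigned to a sex from *Xist* and Y-linked genes, 51.7% were female at MS-LS, 63.2% at OB-EB and 85.7% at EHF, so the libraries differed in the embryos pooled as well as in stage. Levels are given as counts per 1000000 UMIs of the library or class (CPM) with the 95% exact Poisson interval. Since 3′ counts are not divided by transcript length, levels are compared between samples and classes, not between genes.

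All 8 genes were at their highest in the EHF library. *Nkx2-5* was close to the detection limit before that stage: 7 UMIs were found at MS-LS (0.390 CPM, interval 0.157 to 0.803), 3 at OB-EB (0.246, 0.0508 to 0.720) and 77 at EHF (3.78, 2.98 to 4.72). *Mef2c* was at 1.34 CPM at MS-LS (0.856 to 1.99), 5.25 at OB-EB (4.05 to 6.71) and 14.9 at EHF (13.3 to 16.7). *Isl1* was at 2.004 CPM (1.40 to 2.77), 6.16 (4.84 to 7.72) and 10.4 (9.005 to 11.9). For *Mef2c* and *Isl1* the intervals of the 3 stages did not overlap, whereas for *Nkx2-5* those of the 2 earlier stages did.

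Over whole libraries, both HAND factors were higher at each later stage. *Hand1*, with 469, 555 and 2618 UMIs, was at 26.1 CPM at MS-LS (23.8 to 28.6), 45.6 at OB-EB (41.8 to 49.5) and 128 at EHF (124 to 133). *Hand2*, with 31, 52 and 161 UMIs, was at 1.73 CPM (1.17 to 2.45), 4.27 (3.19 to 5.60) and 7.90 (6.73 to 9.22). The intervals of the 3 stages did not overlap for either gene.

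*Meis1*, *Prrx2* and *Smarcd3* had low levels at both earlier stages. *Meis1* was at 3.01 CPM at MS-LS (2.26 to 3.92), 4.43 at OB-EB (3.33 to 5.78) and 18.9 at EHF (17.1 to 20.9). *Prrx2* was at 1.28 CPM (0.811 to 1.92), 3.37 (2.42 to 4.57) and 23.8 (21.7 to 25.97). *Smarcd3* was at 1.34 CPM (0.856 to 1.99), 3.86 (2.84 to 5.13) and 19.9 (18.0 to 22.0). For *Meis1* the intervals of MS-LS and OB-EB overlapped, and for *Prrx2* and *Smarcd3* they did not.

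**Figure D1:**
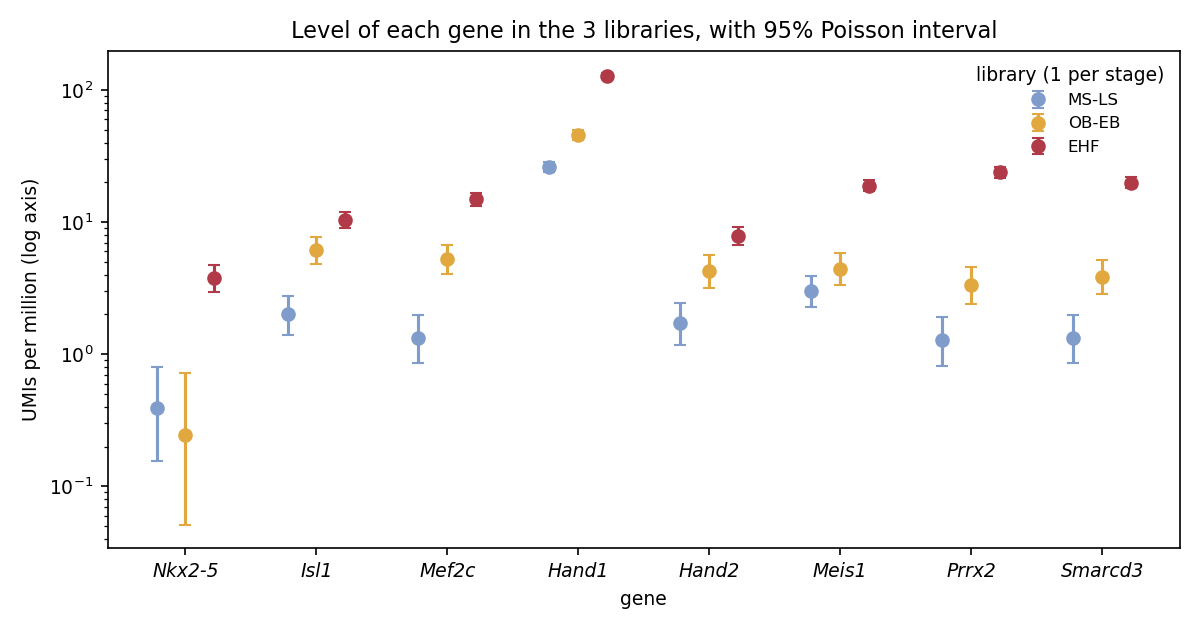
Level of each of the 8 genes (CPM, log axis) at the 3 stages, 1 library each; bars are 95% Poisson intervals, which cover counting error only. The EHF point is the highest for every gene, with *Nkx2-5* moving from 0.246 CPM at OB-EB to 3.78 CPM at EHF.

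Between OB-EB and EHF, 6 of the 8 genes were over 2-fold higher and none was over 2-fold lower. The background for this was 15.2% of 10490 genes with at least 100 UMIs over both libraries, 7 of the 8 genes being among them (*Nkx2-5* fell short of 100 UMIs). The log2 ratio was 3.94 for *Nkx2-5* (2.34 to 6.25, on 3 UMIs at OB-EB), 2.82 for *Prrx2* (2.36 to 3.32), 2.37 for *Smarcd3* (1.93 to 2.84) and 2.09 for *Meis1* (1.68 to 2.53). It was 1.51 for *Mef2c* (1.11 to 1.92) and 1.496 for *Hand1* (1.36 to 1.63). *Hand2* (0.89, 0.43 to 1.37) and *Isl1* (0.75, 0.36 to 1.15) stayed under 2-fold. The median gene was itself 0.37 higher in EHF. With ratios taken relative to that median 6 genes were still past 2-fold, against 6.94% of 10490 genes, *Hand1* least at 1.13. In female cells alone 8 genes were past 2-fold, against 15.4% of 8859 genes. In male cells alone it was 5, against 10.0% of 4910 genes, *Meis1* being just under 2-fold (log2 ratio 0.99). The part of the sex difference between libraries in these values was not tested.

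Changes between the 2 earlier stages rested on fewer UMIs. Between MS-LS and OB-EB, 5 genes were over 2-fold higher, against 4.17% of 9706 genes: *Mef2c* (log2 ratio 1.98, 1.28 to 2.72), *Isl1* (1.62, 1.03 to 2.24), *Smarcd3* (1.53, 0.79 to 2.30), *Prrx2* (1.39, 0.62 to 2.20) and *Hand2* (1.31, 0.64 to 1.998). Only *Isl1*, *Hand1* and *Meis1* reached 100 UMIs over both libraries, 1 of these 3 being past 2-fold, and with a limit of 20 UMIs the background was 7.26% of 13283 genes. Among the 5, *Mef2c* and *Isl1* alone had an interval that lay wholly past 2-fold. *Hand1* was higher by 0.80 (0.62 to 0.98) and *Meis1* by 0.56 (-0.01 to 1.13). Within mesoderm clusters alone 3 genes were over 2-fold higher, against 4.84% of 5687 genes. They were *Mef2c* (1.21, 0.40 to 2.09), *Smarcd3* (1.05, 0.11 to 2.09) and *Meis1* (1.04, 0.01 to 2.18). There, *Isl1* (0.91, 0.21 to 1.66), *Prrx2* (0.94, -0.30 to 2.32), *Hand2* (0.37, -0.36 to 1.12) and *Hand1* (0.24, 0.02 to 0.46) were not past 2-fold. Mesoderm clusters held 17.4% of all UMIs at MS-LS and 35.3% at OB-EB. The part of this difference in the whole-library ratios was not tested. Over the whole course from MS-LS to EHF all 8 genes were over 2-fold higher, against 11.0% of 10799 genes, from 2.20 for *Hand2* to 4.21 for *Prrx2*.

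Libraries differed in depth, so cells were also thinned to 2000 UMIs each, leaving out 231, 1055 and 309 shallower cells. *Hand1* was then detected in 4.08% of MS-LS cells (3.44 to 4.80, exact binomial interval), 6.70% of OB-EB cells (5.83 to 7.67) and 15.1% of EHF cells (13.9 to 16.4). Without thinning its shares were 8.47%, 8.81% and 26.1%. *Nkx2-5* was detected in 0.754% of thinned EHF cells (0.483 to 1.12) and in 1 of 2939 thinned OB-EB cells. For each of the 8 genes the EHF interval of the thinned share lay above that of OB-EB. The thinned shares at EHF were 4.24% for *Prrx2*, 3.64% for *Smarcd3*, 3.33% for *Meis1*, 2.07% for *Mef2c*, 1.82% for *Isl1* and 1.44% for *Hand2*. In erythroid-like EHF cells, a class that should lack them (median 5141 UMIs), *Nkx2-5*, *Isl1*, *Prrx2* and *Smarcd3* were found in 0 of 104 cells, which allows a share of up to 2.88% (3 counts; the exact binomial upper bound is 3.48%).

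To find which cells carried these genes, the cells of each library were clustered with the 8 genes held out, and clusters were named from marker lists that hold none of them. At EHF this gave 31 clusters, 1 of which was FHF-like: 101 cells with a median of 6340 UMIs and led by *Myl7*, *Rgs5*, *Myl4* and *Tnnt2*. All 10 FHF markers had UMIs there, with a summed level of 1080 CPM against at most 376 CPM in any other class. Of 6 endothelial markers, *Kdr* and *Etv2* were present (143 CPM together) and *Cdh5*, *Pecam1*, *Esam* and *Sox7* were at 0. FHF-like cells held 3.54% of the UMIs of the EHF library. Of the 8 genes, they held 61.8% of the *Mef2c* UMIs, 61.0% of *Nkx2-5*, 27.6% of *Smarcd3*, 24.8% of *Hand2*, 21.3% of *Isl1* and of *Meis1*, 17.1% of *Prrx2* and 2.37% of *Hand1*.

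The highest level of 5 genes was in the FHF-like class, and they differed in how far it stood above the next class. *Mef2c* was at 261 CPM (225 to 301) in FHF-like cells and at 26.3 CPM (14.0 to 44.9) in paraxial mesoderm-like cells, the next in order, a log2 ratio of 3.31 (2.50 to 4.25). *Nkx2-5* was at 65.2 CPM (47.9 to 86.8) and next at 18.9 CPM (7.59 to 38.9, 7 UMIs) in cluster 2, an unnamed cluster with a median of 1779 UMIs per cell, a log2 ratio of 1.79 (0.63 to 3.18). *Smarcd3* was at 155 CPM (128 to 187) and next at 72.9 CPM (55.6 to 93.8) in cluster 9, unnamed and led by *Ppp1r1a*, *Tcf15* and *Alx1*, a log2 ratio of 1.09 (0.63 to 1.57). For these 3 genes the interval of the ratio stayed above 0. *Meis1* (114 CPM, 90.5 to 141) was not separated from paraxial mesoderm-like cells (82.9 CPM, 59.5 to 112, log2 ratio 0.46, -0.10 to 1.04). *Hand2* (55.5 CPM, 39.7 to 75.6) was not separated from mesenchyme-like cells (49.7 CPM, 35.3 to 67.9) or from cluster 15 (48.7 CPM, 33.9 to 67.7), unnamed and with *Hoxb6* and *Foxf1* among its leading genes. Its interval over cluster 2 also included 0 (35.1 CPM, 18.7 to 60.0, log2 ratio 0.66, -0.27 to 1.69).

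**Figure D2:**
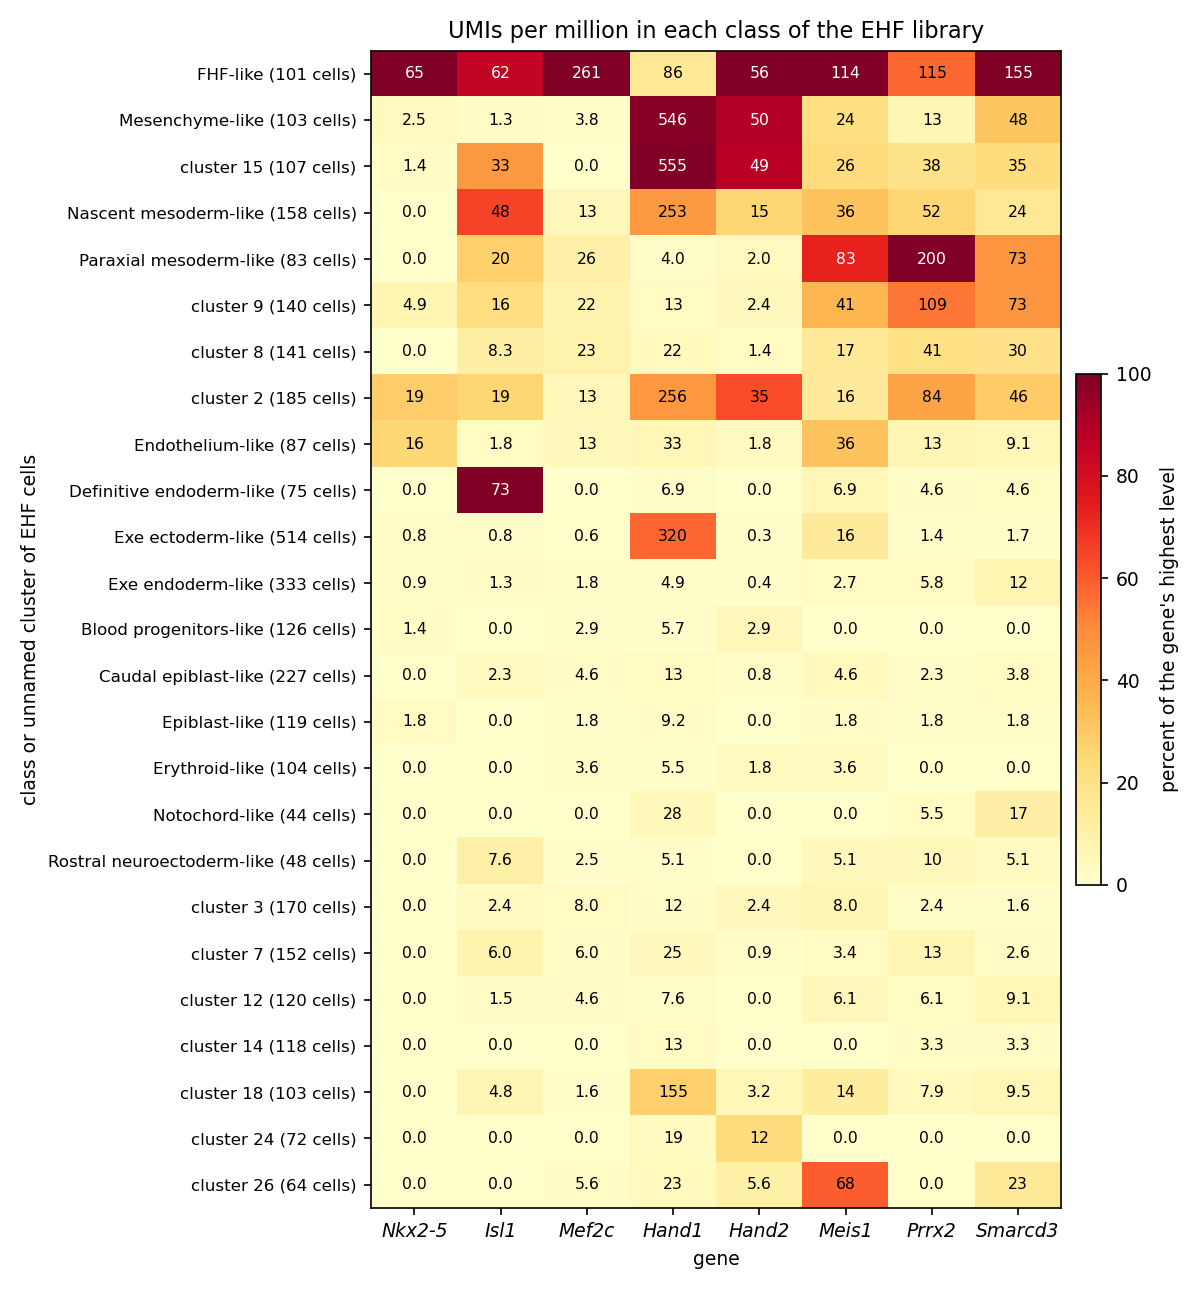
Level of each gene (CPM, printed in each field) in the 25 classes and unnamed clusters of the EHF library; colour is the percent of the gene's highest level. The FHF-like row holds the highest level of 5 of 8 genes, while *Hand1* peaks in cluster 15 (555 CPM) and mesenchyme-like cells (546 CPM).

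The other 3 genes peaked elsewhere. *Isl1* was highest in definitive endoderm-like cells (73.5 CPM, 50.2 to 104), which did not differ beyond the interval from FHF-like cells (62.5 CPM, 45.6 to 83.6, log2 ratio 0.23, -0.47 to 0.92). Nascent mesoderm-like cells, led by *Mesp1* and *Cdx4*, followed with 47.7 CPM (34.9 to 63.7). *Prrx2* was highest in paraxial mesoderm-like cells (200.1 CPM, 163 to 244), above FHF-like cells (115 CPM, 91.8 to 143) by a log2 ratio of 0.80 (0.36 to 1.23), and cluster 9 (109 CPM, 87.9 to 134) was level with FHF-like cells. With the 8 genes among the variable genes, paraxial mesoderm-like cells were a wider class of 366 cells, and the order turned, with *Prrx2* at 116.5 CPM in FHF-like and 111 CPM in paraxial mesoderm-like cells. *Hand1* was highest in cluster 15 (555 CPM, 502 to 612) and in mesenchyme-like cells (546 CPM, 496 to 601), which did not differ (log2 ratio 0.02, -0.18 to 0.22). FHF-like cells, with 86.1 CPM of *Hand1* (66.0 to 110), ranked below both, and below Exe ectoderm-like (320.0 CPM, 302 to 339) and nascent mesoderm-like cells (253 CPM, 222 to 287).

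Compared with all other EHF cells, FHF-like cells had 7 of the 8 genes over 2-fold higher, the background being 2.94% of 9449 genes. The log2 ratio was 5.47 for *Mef2c* (5.13 to 5.81), 5.42 for *Nkx2-5* (4.73 to 6.13), 3.38 for *Smarcd3* (3.05 to 3.70) and 3.17 for *Hand2* (2.62 to 3.70). It was 2.89 for *Isl1* (2.38 to 3.37), 2.88 for *Meis1* (2.51 to 3.24) and 2.50 for *Prrx2* (2.14 to 2.84). *Hand1* went the other way, at -0.60 (-0.98 to -0.23). *Nkx2-5*, with 77 UMIs, was not among the 9449 genes.

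Set against mesoderm alone, the same genes separated into 3 groups. The reference was the other 7 of 8 clusters whose best-scoring type was mesodermal, and 0.896% of 5582 genes were over 2-fold higher in FHF-like cells. *Nkx2-5* (4.51, 3.62 to 5.48) and *Mef2c* (4.21, 3.80 to 4.63) remained more than 8-fold above. *Smarcd3* (1.78, 1.44 to 2.11), *Meis1* (1.74, 1.34 to 2.13), *Isl1* (1.51, 0.97 to 2.03) and *Hand2* (1.37, 0.80 to 1.91) were over 2-fold above, *Isl1* and *Hand2* with intervals that reached below 2-fold. *Prrx2* (0.74, 0.37 to 1.09) was under 2-fold, and *Hand1* was lower, by 1.51 on the log2 scale (-1.90 to -1.14). *Chpf2*, the gene on the other strand of the *Smarcd3* 3′ end, had 3 UMIs in FHF-like cells and 58 in all others. Whether the counting used strand was not given in the sources used here.

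**Figure D3:**
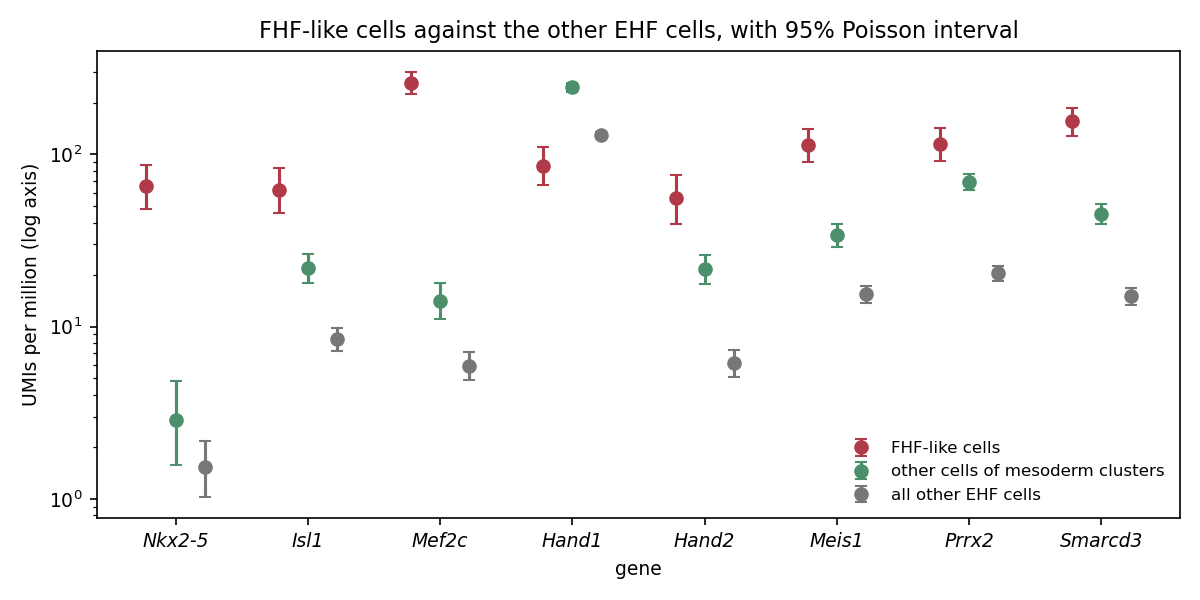
Level of each gene (CPM, log axis) in FHF-like cells, in the other cells of mesoderm clusters and in all other EHF cells; bars are 95% Poisson intervals. *Nkx2-5* and *Mef2c* stand apart from both reference groups, whereas *Hand1* is lower in FHF-like cells (86.1 CPM) than in the other mesoderm (245 CPM).

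FHF-like cells carried unequal parts of the EHF level of the 8 genes. Leaving these 101 cells out of the EHF library, *Mef2c* fell from 14.9 to 5.90 CPM, and its log2 ratio over OB-EB from 1.51 to 0.17 (-0.28 to 0.63). *Hand2* and *Isl1* went to 0.53 (0.05 to 1.03) and 0.46 (0.05 to 0.87). The other 5 genes stayed over 2-fold higher than at OB-EB, against 15.2% of 10439 genes. They were *Nkx2-5* at 2.63 (0.95 to 4.99), *Prrx2* at 2.60 (2.13 to 3.10), *Smarcd3* at 1.95 (1.51 to 2.43), *Meis1* at 1.80 (1.38 to 2.24) and *Hand1* at 1.51 (1.38 to 1.65). Within mesoderm clusters alone (1353 cells at OB-EB, 1018 at EHF), 7 genes were over 2-fold higher at EHF, against 14.0% of 7055 genes. *Isl1* was the exception (0.91, 0.48 to 1.36). There, *Prrx2* went from 4.89 to 75.0 CPM, *Smarcd3* from 8.61 to 59.4 CPM and *Meis1* from 7.21 to 44.3 CPM. The interval of *Hand1* (1.14, 0.99 to 1.30) reached just below 2-fold.

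At OB-EB no cluster was FHF-like. Cluster 5 of that library, 305 cells led by *Foxf1*, *Pmp22* and *Tbx20* and unnamed (its best-scoring type was mesenchyme), had the highest level of 6 of the 8 genes. *Hand1* was at 321 CPM there (287 to 358), *Hand2* at 27.98 CPM (18.6 to 40.4), *Smarcd3* at 24.0 CPM (15.4 to 35.7) and *Isl1* at 23.0 CPM (14.6 to 34.5). *Mef2c* was at 17.0 CPM (9.90 to 27.2) and *Meis1* at 14.99 CPM (8.39 to 24.7). *Hand1* (log2 ratio over the next class 2.33, 1.93 to 2.75) and *Hand2* (1.93, 0.63 to 3.50) were separated from the next class. *Isl1* (0.82, -0.23 to 1.92) and *Mef2c* (0.27, -0.83 to 1.41) were not separated from cluster 2, *Meis1* (0.12, -1.06 to 1.31) from Exe ectoderm-like cells or *Smarcd3* (0.74, -1.27 to 3.87) from notochord-like cells, which had 2 UMIs. *Nkx2-5* had 1 UMI in cluster 5, 1 in cluster 13 (unnamed, best-scoring type endothelium) and 1 in cluster 0 (unnamed, best-scoring type epiblast). *Prrx2* was spread thinly, with no more than 7 UMIs in any cluster of that library.

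At MS-LS the genes were at their highest in nascent mesoderm-like cells (580 cells in 2 clusters) for 5 of the 8. *Hand1* was at 91.8 CPM there (81.0 to 104), *Isl1* and *Hand2* at 8.47 CPM each (5.43 to 12.6), *Mef2c* at 5.65 CPM (3.23 to 9.17) and *Smarcd3* at 4.24 CPM (2.19 to 7.40). Of these, *Hand1* alone was separated from the next class (log2 ratio 0.95, 0.65 to 1.25), and for the other 4 genes the next class had 1 or 2 UMIs and the interval of the ratio included 0. The 2 clusters of nascent mesoderm-like cells had *Hand1* at 79.4 and 106 CPM. *Nkx2-5* had 4 UMIs in nascent mesoderm-like cells (1.41 CPM), 2 in endothelium-like cells (5.80 CPM) and 1 in primitive streak-like cells (0.638 CPM), too few to set an order. *Prrx2* had its highest level in notochord-like cells from 2 UMIs, which sets no order. *Meis1* was highest in Exe ectoderm-like cells (8.81 CPM, 5.81 to 12.8), with 27 of its 54 UMIs. That was above nascent mesoderm-like cells (3.88 CPM) by a log2 ratio of 1.18 (0.12 to 2.34). Mesoderm clusters held 20.4% of the *Meis1* UMIs at MS-LS, close to their 17.4% of the UMIs of all genes.

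*Hand1* and *Hand2* are close relatives, and both were detected in mesoderm clusters, while *Hand2* was nearly absent from the trophoblast lineage. In 514 Exe ectoderm-like EHF cells *Hand1* had 1134 UMIs, 43.3% of its UMIs in that library, and *Hand2* had 1. The 514 cells held 3543791 of the 20376539 UMIs of all genes. *Hand1* was detected in 73.7% of these cells (69.7 to 77.5), and its level in the 4 clusters of the class ran from 181 to 411 CPM. In mesenchyme-like cells 29 of 29 cells with *Hand2* also had *Hand1*, and in cluster 15 it was 25 of 26, where *Hand1* was detected in 94.2% and 94.4% of all cells of the class. In FHF-like cells it was 11 of 32, where *Hand1* was detected in 29.7% of all cells. Over all EHF cells without thinning, 82 cells had both genes and the within-cluster product was 74.2. Conversely, *Hand1* was scarce in paraxial mesoderm-like cells (2 UMIs, 4.04 CPM), where *Prrx2*, *Meis1* and *Smarcd3* were high. Exe ectoderm-like cells had *Hand1* at every stage, at 47.6 CPM at MS-LS (40.2 to 56.0), 63.9 CPM at OB-EB (48.7 to 82.2) and 320.0 CPM at EHF.

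The 4 classes and clusters with the highest *Isl1* level at EHF had different others of the 8 genes beside it. Lower levels were found elsewhere, among them paraxial mesoderm-like cells (20.2 CPM, 10 UMIs), cluster 2 (18.9 CPM, 7 UMIs) and cluster 9 (15.8 CPM, 13 UMIs). Of 37 FHF-like cells with *Isl1*, 36 had at least 1 of the other 7 genes, among them *Smarcd3* in 26, *Mef2c* in 24 and *Nkx2-5* in 14. Over all 101 FHF-like cells *Smarcd3* was in 61, *Mef2c* in 68 and *Nkx2-5* in 30. At least 1 of the 8 genes, *Isl1* included, was in 100 of the 101. Of 38 nascent mesoderm-like cells with *Isl1*, 32 had another of the genes, *Hand1* in 25 (58.2% of all cells of the class had *Hand1*) and *Nkx2-5* in none. In cluster 15 all 22 cells with *Isl1* had *Hand1*, as did 94.4% of all cells of that cluster. Of 20 definitive endoderm-like cells with *Isl1*, 3 had another of the genes, *Hand1* in 2 and *Smarcd3* in 1. *Mef2c*, *Hand2* and *Nkx2-5* had no UMI in the 75 definitive endoderm-like cells, where 3 UMIs, the limit that a count of 0 allows, would be 6.89 CPM (the exact Poisson upper bound is 8.47 CPM).

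*Nkx2-5* outside the FHF-like class was found in 26 of the 56 cells that had it. Endothelium-like cells held 7 of these, with 9 UMIs (16.4 CPM, 7.48 to 31.0), and *Kdr* was detected in 6 of the 7, *Etv2* in 6 and *Myl7* in 6. Of these, 1 was among the 5% of cells with the highest doublet score, a score that marked too few cells to have worked. Cluster 2 held 6 cells and cluster 9 held 4, all 4 with *Myl7*. Of the 30 FHF-like cells with *Nkx2-5*, 28 had *Myl7* and 7 had *Tnnt2*. *Kdr* and *Etv2* are markers that name the endothelium-like class, and *Myl7* and *Tnnt2* are markers that name the FHF-like class. *Myl7* is also a leading gene of cluster 9. Their shares over all cells of each class are not given, so these counts do not set cells with *Nkx2-5* apart.

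Detection of several of the genes in the same cell was concentrated in the FHF-like class. Of 3494 EHF cells, 510 had at least 2 of the 8 genes, 198 at least 3 and 91 at least 4. FHF-like cells, 101 in number, made up 72 of the 198 and 53 of the 91. A single cell had all 8, and it was FHF-like. After thinning to 2000 UMIs, 169 of 3185 cells had at least 2 genes. The share was 40.0% in FHF-like cells, 25.2% in cluster 15, 17.9% in cluster 2, 17.1% in paraxial mesoderm-like, 14.5% in nascent mesoderm-like, 13.7% in mesenchyme-like and 10.2% in cluster 9 cells. It was 2.05% in Exe ectoderm-like cells, and none of 104 erythroid-like cells had 2. All 4 thinned cells with at least 4 genes were FHF-like. Cells with at least 4 genes before thinning had a median of 8554 UMIs against 5584 in the library. Of these 91, 4 were among the 5% of cells with the highest doublet score. That score marked too few cells to have worked, so it does not tell whether these cells were doublets.

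**Figure D4:**
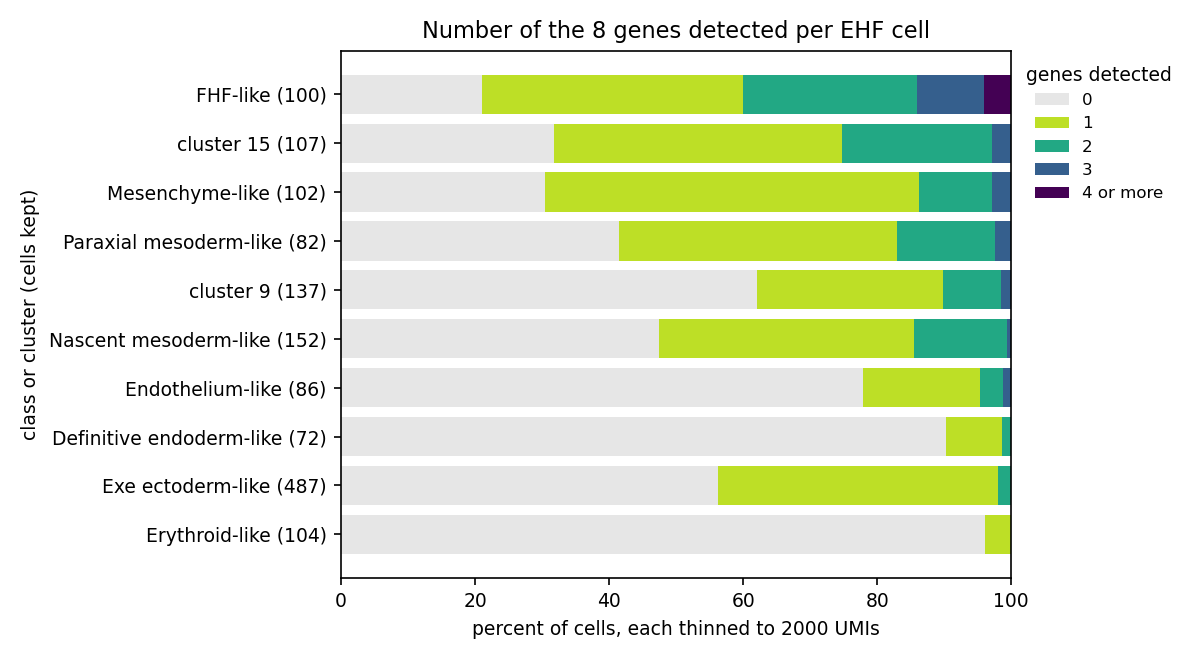
Percent of EHF cells with 0, 1, 2, 3 or at least 4 of the 8 genes, each cell thinned to 2000 UMIs, for 10 classes and clusters (cells kept in brackets). At least 2 genes were detected in 40.0% of FHF-like cells and in 25.2% of cluster 15, but in no erythroid-like cell.

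For each of the 28 pairs of genes, the number of thinned cells with both was compared with the product of the 2 shares. Over all cells, 25 of 28 pairs were above the product, by a median ratio of 3.28. *Nkx2-5* and *Mef2c* were found together in 6 cells where the product was 0.497, *Hand1* and *Hand2* in 25 where it was 6.96, and *Meis1* and *Prrx2* in 18 where it was 4.49. When the product was taken within each cluster and summed, the median ratio was 1.07, with 17 of 28 pairs above it. *Nkx2-5* and *Mef2c* were then level with it (6 cells, product 6.03), as were *Mef2c* with *Smarcd3* (10 cells, 9.77) and *Mef2c* with *Prrx2* (10 cells, 9.97). *Meis1* with *Prrx2* (18 cells, 11.1), *Meis1* with *Smarcd3* (14 cells, 8.61) and *Hand1* with *Hand2* (25 cells, 18.9) were above it. These counts are small and were not tested.

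**Figure D5:**
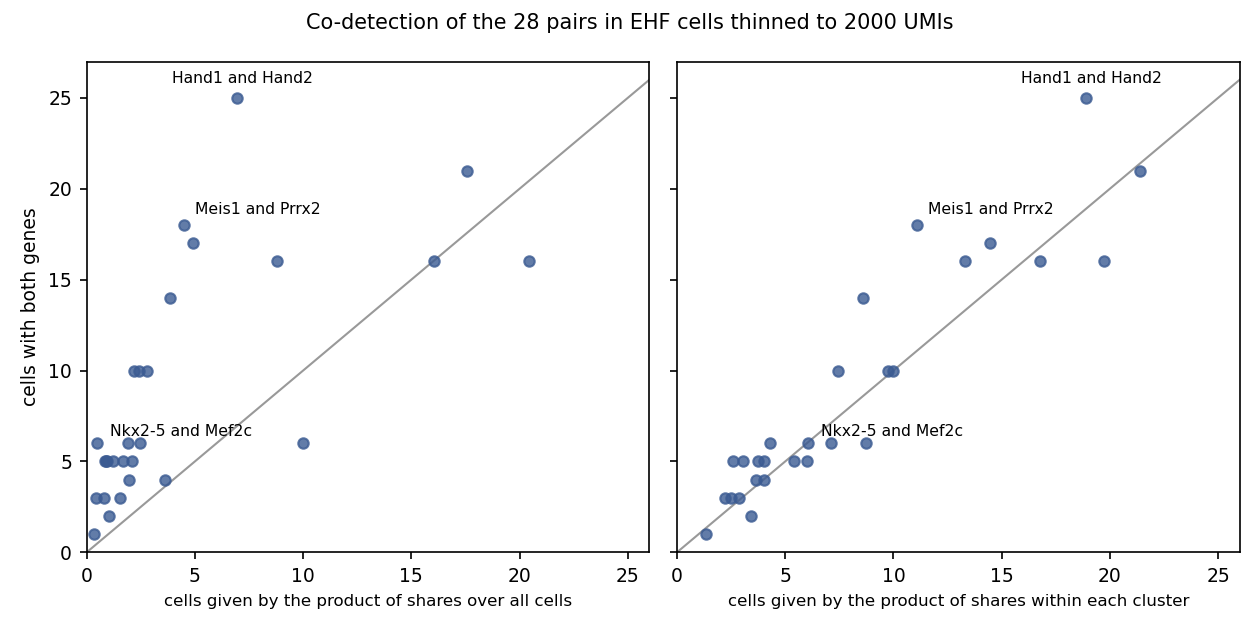
Cells with both genes of a pair against the number given by the product of their shares, over all cells (left) and within clusters (right), for 28 pairs in 3185 thinned EHF cells; the grey line marks equality. Most points lie above the line on the left (25 of 28) and near it on the right (17 of 28 above).

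Within FHF-like cells, without thinning, *Mef2c* was detected in 68 of 101 cells, *Smarcd3* in 61, *Meis1* in 51, *Prrx2* in 50, *Isl1* in 37, *Hand2* in 32, and *Nkx2-5* and *Hand1* in 30 each. *Nkx2-5* was found with *Mef2c* in 22 cells (product of shares 20.2), with *Isl1* in 14 (11.0) and with *Smarcd3* in 17 (18.1). *Isl1* with *Smarcd3* was seen in 26 cells (22.3) and *Hand1* with *Prrx2* in 19 (14.9). *Hand1* with *Meis1* was below its product (13 cells, 15.1), as was *Nkx2-5* with *Hand1* (7 cells, 8.91). In 100 FHF-like cells thinned to 2000 UMIs, *Nkx2-5* was with *Mef2c* in 5 cells (5.85), with *Isl1* in 2 (1.95) and with *Smarcd3* in 3 (3.0). *Isl1* was with *Smarcd3* in 5 (2.6) and *Hand1* with *Prrx2* in 3 (2.24). *Hand1* with *Meis1* and *Nkx2-5* with *Hand1* were in 2 each (2.1). Without thinning, every pair was found together in at least 7 FHF-like cells. In the erythroid-like class (median 5141 UMIs against 6340) the shares were 0 to 2.88%, against 29.7 to 67.3% in FHF-like cells.

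The patterns of the 8 genes over the 31 EHF clusters were compared with those of other genes by Pearson's correlation of log2(CPM + 10). This is a description over clusters of 1 library, which share depth and processing. *Nkx2-5* was most like *Myl4* (r = 0.93), *Mef2c* (0.78) and *Rgs5* (0.77), and *Mef2c* was like *Myl4* (0.81) and *Wnt2* (0.79). *Smarcd3* and *Prrx2* were closest to each other among the 8 (0.85). *Prrx2* was then most like *Crabp1* (0.87) and *Foxc2* (0.83), and *Smarcd3* was also like *Wnt2* (0.76). *Hand2* was most like *Rgs5* (0.83), *Tnnt2* (0.82) and *Foxf1* (0.80), and *Hand1* like *Dok4* (0.78), *Lgals1* (0.77) and *Smad7* (0.75). *Isl1* was most like *Tgfb2* (0.83), *Kitl* (0.79) and *Bambi* (0.79), and *Meis1* like *Hs3st3b1* (0.84), *Cbfb* (0.75) and *Scaf1* (0.75). Among the 8, *Hand1* was least like the others, with r from 0.01 (*Mef2c*) to 0.46 (*Hand2*).

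Close relatives and complex partners of the 8 genes were measured in the same cells. Of 15 paralogs and partners, 10 had at least 100 UMIs at EHF and 0 were over 2-fold higher or lower in FHF-like cells, with a median log2 ratio of 0.47 against -0.04 for all 9449 genes. *Smarcd1* was at 52.8 CPM in FHF-like cells and 56.4 CPM in the others, and *Smarcd2* at 37.5 and 27.6 CPM, while *Smarcd3* was at 155 and 14.96 CPM. *Mef2a* was at 19.4 and 12.7 CPM, and *Meis2* at 90.2 and 91.1 CPM. Between OB-EB and EHF, 3 of 11 paralogs and partners were over 2-fold higher, against 15.2% of 10490 genes. They were *Prrx1* (log2 ratio 2.90, on 11 UMIs at OB-EB), *Meis3* (1.73) and *Meis2* (1.35). Another 2 were lower, among them *Pbx3* (-1.24), and the median was 0.33. Of 25 other BAF subunits, 21 were measured at that depth and 0 were past 2-fold in FHF-like cells (median 0.20), where 278 of 9449 genes were higher and 1069 lower. *Smarca4*, the ATPase, had a log2 ratio of 0.06 and *Smarcc1* of 0.47. Of the BAF subunits under 100 UMIs, *Dpf3* had 7 UMIs in FHF-like cells and 43 in the others, a log2 ratio of 2.15 (0.75 to 3.32). *Ss18l1* had 3 and 38 UMIs (1.11, -1.23 to 2.76) and *Dpf1* 3 and 46 (0.83, -1.50 to 2.47). Between OB-EB and EHF, 0 of 22 BAF subunits were over 2-fold higher and 3 were lower, *Smarcd1* (log2 ratio -1.05), *Brd9* (-1.43) and *Dpf1* (-2.99), with a median of -0.03. Of all 10490 genes 5.55% were lower, with a median of 0.37.

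The cardiac regulators and sarcomere genes that were not among the 8 include markers used to name the FHF-like class, so their levels there are a description. Of 22 regulators, 13 had at least 100 UMIs: 4 were over 2-fold higher in FHF-like cells, namely *Gata6* (2.71), *Tbx20* (2.38), *Gata4* (2.17) and *Foxf1* (1.06), and 2 were lower, *Mesp1* (-1.74, -3.37 to -0.51) and *Irx4* (-2.36 on 1 UMI, -7.67 to 0.14). Of 20 sarcomere and myocardial genes, 6 had at least 100 UMIs and 5 were over 2-fold higher, with *Myl4* at 4.97, *Tnnt2* at 4.25 and *Myl7* at 3.86. Between OB-EB and EHF 1 of 13 regulators was over 2-fold higher (*Irx4*, 3.81) and 1 lower (*Mesp1*, -2.36), with a median of -0.05. Regulators under 100 UMIs over both libraries were not counted. Of these, *Gata5* went from 0 UMIs at OB-EB to 56 at EHF, *Tbx1* from 3 to 70 and *Tbx5* from 0 to 22. *Hopx* (0.903 to 0.785 CPM) and *Zfpm2* (0.328 to 0.196 CPM) went the other way. *Gata4* and *Gata6* were at 13.8 and 24.0 CPM at EHF against 18.9 and 30.9 CPM at OB-EB.

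The reporter was detected in 3 of 101 FHF-like cells (2.97%, 0.617 to 8.44). It was found in 0.901% of Exe endoderm-like cells, a class that should lack it, but in 8.33% of rostral neuroectoderm-like cells (4 of 48). Its share was 48.9% in unnamed cluster 8, 48.3% in unnamed cluster 12, 45.6% in nascent mesoderm-like and 38.6% in paraxial mesoderm-like cells. Among EHF cells with *Prrx2*, 21.4% had a tdTomato UMI (17.1 to 26.1, median 6325 UMIs) against 10.5% of cells without (9.44 to 11.6, median 5473), and among those with *Nkx2-5* it was 2 of 56. The share was also higher in cells with *Isl1*, *Smarcd3* and *Meis1* than in cells without (19.8% against 11.1%, 16.6% against 11.1% and 16.1% against 11.1%), while the shares were 13.6% and 11.4% for *Mef2c*, 13.0% and 11.5% for *Hand2*, and 9.32% and 12.3% for *Hand1*. Thinned to 2000 UMIs, the shares were 9.01% and 4.89% for *Prrx2* and 7.02% and 5.21% for *Isl1*. They were 7.07% and 5.13% for *Smarcd3*, and 7.47% and 5.10% for *Meis1*. For *Mef2c* they were 5.45% and 5.30%, for *Hand2* 4.72% and 5.33%, for *Hand1* 3.63% and 5.95%, and for *Nkx2-5* 0% and 5.40%. Within FHF-like cells, without thinning, the *Prrx2* shares were 2 of 50 and 1 of 51. The order was the reverse for *Isl1* (0 of 37 and 3 of 64), *Meis1* (0 of 51 and 3 of 50) and *Smarcd3* (1 of 61 and 2 of 40). All of these rest on 3 FHF-like cells with the reporter. The part of cell class in these differences was not tested.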

How the data were processed

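Single-cell RNA-seq of pooled whole mouse embryos at 3 stages was deposited by the authors as raw UMI counts per gene and cell, made with Cell Ranger 3.0.2 against GRCm38 (Ensembl annotation plus tdTomato and WPRE sequences). The authors had removed cells under 500 genes or 1000 UMIs and cells with a high mitochondrial share, and used R 3.6.1 and Seurat 3. Their cell annotation was not used here, so classes were rebuilt and may differ from theirs. The 8 genes and all lists were chosen with earlier results of these data known.

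Cells were clustered in Seurat 5.3.0 (R 4.3.3) on 2000 variable genes without the 8 genes and 50 components, at resolution 4.5 for EHF and 2 for the earlier stages. A cluster was named where it had at least 3 detected markers, scored 0.2 or more above any other type and was not led by genes of another type, and otherwise kept its number. Levels are counts per 1000000 UMIs with exact Poisson intervals, ratios have the exact conditional interval and shares the exact binomial one, all at 95%, and all cover counting error only. Past 2-fold means a log2 ratio over 1 either way, and backgrounds use genes with at least 100 UMIs over both groups. Scrublet (scanpy 1.11.5) marked 6, 0 and 13 cells at MS-LS, OB-EB and EHF, too few to have worked, so no cell was removed and the 5% with the highest score were left out as an alternative. Genes were named by a fixed rule: the 8 genes in every library and class, then lists as counts with up to 4 examples, and for each of the 8 the 3 most alike, of which some are not reported here. A few list genes with under 100 UMIs were named outside this rule. The ratio code was tested on simulated data. Python 3.11.15, numpy 2.4.6, pandas 2.3.3 and scipy 1.17.1 were used.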

Additional observations from a re-analysis of the deposited data

How the results depend on the processing

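No paired analysis was possible because each stage is 1 library of pooled embryos. Of the counts past 2-fold between stages, 68 of 72 stayed within 1.5 times under the alternatives. From MS-LS to OB-EB, 1 gene was lower, *Nkx2-5* on at most 7 UMIs per library, without extra-embryonic ectoderm and endoderm, blood and endothelium, in female cells only and in mesoderm clusters only, against 0 in all cells, and 3 genes were higher in mesoderm clusters only, against 5 (*Isl1*, *Hand2* and *Prrx2* went under 2-fold and *Meis1* passed it). In FHF-like cells 1 gene (*Hand1*) was lower against the other mesoderm clusters and 0 against all other cells. Cells with at least 2 of the genes, 169 at 2000 UMIs, were 510 with no thinning, 256 at 3500 UMIs and 109 when 2 UMIs counted as detected. No ratio that was past 2-fold changed sign. The mesoderm-only, sex and FHF-free settings were chosen after seeing the data. The FHF-like cluster had 91 cells at resolution 2, 105 at resolution 8 and 96 with the 8 genes among the variable genes. With 1 library per stage, embryo-to-embryo variation is unknown, and before EHF the depth limits *Nkx2-5* to 3 to 7 UMIs.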
